A study of Homo sapiens with 12 samples.

Results

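The addition of anti-LAG3 to anti-PD1 was followed in 6 of 12 RNA-seq libraries made from 2 human cell lines grown together. The 3 combination libraries received anti-PD1 (MK3475, pembrolizumab) with anti-LAG3 (MK4280, favezelimab), each at 0.01, 0.1 or 1 µg/ml. The 3 anti-PD1 libraries received anti-PD1 with an isotype antibody at the same doses, so each combination library had an anti-PD1 library of equal dose. All of them, like the 3 anti-LAG3 plus isotype and the 3 isotype libraries used to estimate the spread, came from Jurkat, a T cell leukaemia line labelled as carrying LAG3 and PD1, grown with Raji, a Burkitt lymphoma B cell line labelled as carrying PDL1. The Raji cells had been loaded with staphylococcal enterotoxin D (SED, 100 ng/ml), and the lines were kept together for 24 h at 100000 cells of each per well. Both lines were grown under drug selection, and whether either is 1 clone is not given in the sources used here. Wells were pooled to a pellet of 800000 cells, and each condition has 1 library. The labels do not say that any library came from a separate culture, so a p-value here reflects how far these 12 libraries scatter, and that scatter may be technical.

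SED is a superantigen that bridges MHC class II on the B cell and the T cell receptor (TCR), and so starts TCR signalling without a specific peptide. The signal runs through the kinases LCK and ZAP70 and the adaptors LAT and SLP-76 to calcium, protein kinase C and MAP kinases, which switch on immediate early factors such as the EGR, NR4A and AP-1 families and then surface receptors, chemokines and effector genes. PD1, engaged by PDL1, recruits phosphatases that damp this signal near the receptor, and LAG3, which binds MHC class II, is a second inhibitory receptor of T cells.

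Depth was 25808464 to 28709956 counts in the combination libraries and 23593973 to 28361652 in the anti-PD1 libraries, and 15535 genes passed the filter on low counts. The RNA of both lines was read together, so fewer cells of a line and less RNA per cell cannot be told apart. The defining T cell genes CD3E, TRAC, CD28 and LCK and the defining B cell genes MS4A1, CD79A and CD22 were all well above 0, the lowest of them being CD28 at 61.3 CPM (counts relative to the library's total, TMM-scaled) in 1 library. The 23 tested Jurkat markers summed to 1628 to 1840.1 CPM in the combination and 1611 to 1806 CPM in the anti-PD1 libraries. The 28 Raji markers summed to 10119 to 10599 and 9906 to 10251 CPM. The line balance of a library, taken as the T markers' mean log2 CPM less the B markers' (T minus B), was -1.97 ± 0.077 in the combination and -1.98 ± 0.068 with anti-PD1 (SD, n = 3 each), a difference of 0.00743. An exact two-sided permutation test of 3 against 3 libraries cannot go below p = 0.1, so this says nothing of equal balance, and an average over doses can hide differences at single doses. At 0.01, 0.1 and 1 µg/ml it stood at -1.88, -2.02 and -2.0 in the combination, against -2.05, -1.97 and -1.91 with anti-PD1, higher in the combination at 0.01 µg/ml and lower at 0.1 and 1 µg/ml. PDCD1, the gene of PD1, stood at 220.3, 195 and 215 CPM in the combination libraries, against 204, 211 and 203 CPM in the anti-PD1 libraries at 0.01, 0.1 and 1 µg/ml. CD274, the gene of PDL1, stood at 85.1, 95 and 97.8 CPM in the combination libraries, against 91.2, 90.9 and 84.0 CPM in the anti-PD1 libraries. Neither gene passed the test at 1 µg/ml, with adjusted p = 0.976 for PDCD1 and 0.124 for CD274. LAG3 had 2 counts over the 3 combination libraries and 3 over the 3 anti-PD1 libraries, too few to test. Whether reads of the LAG3 that the labels give the Jurkat line fall within the counted annotation cannot be told from the files, so these counts do not check that label.

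At the highest dose 23 of 48 genes that TCR signalling switches on were higher in the combination. They were led by the EGR and NR4A factors, CD69 and the chemokine XCL1. Adenosine deaminase and 6 of 15 genes of immature thymocytes were lower. The gene lists were chosen with earlier results of these data known, so counts on them describe the lists and are no separate test. A straight line on log10 dose was fitted for each arm, and the distance between the lines at 1 µg/ml was tested with edgeR's quasi-likelihood test and Benjamini-Hochberg adjustment over all genes. At an adjusted p under 0.05, 241 genes were called (1.55% of those tested), 112 higher (0.721%) and 129 lower (0.830%) in the combination. Their median size was 0.61 log2. Log2 differences below are at 1 µg/ml and combination minus anti-PD1, with a standard error after ±, unless another dose is named. The count was 17 without the combination library at 1 µg/ml and 39 without the anti-PD1 library at 1 µg/ml, where the line is carried on from the lower doses, and it was 114 with DESeq2 and 96 when the T minus B value of each library was a covariate. Of 86 called genes that the naming rule takes at this dose, 9 were still called without that combination library and 16 without that anti-PD1 library, and ADA, CD69, DNTT, EGR1, EGR3, LCP2, MYO7B and PRKCH were called whichever of the 6 libraries was left out.

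**Figure D1:**
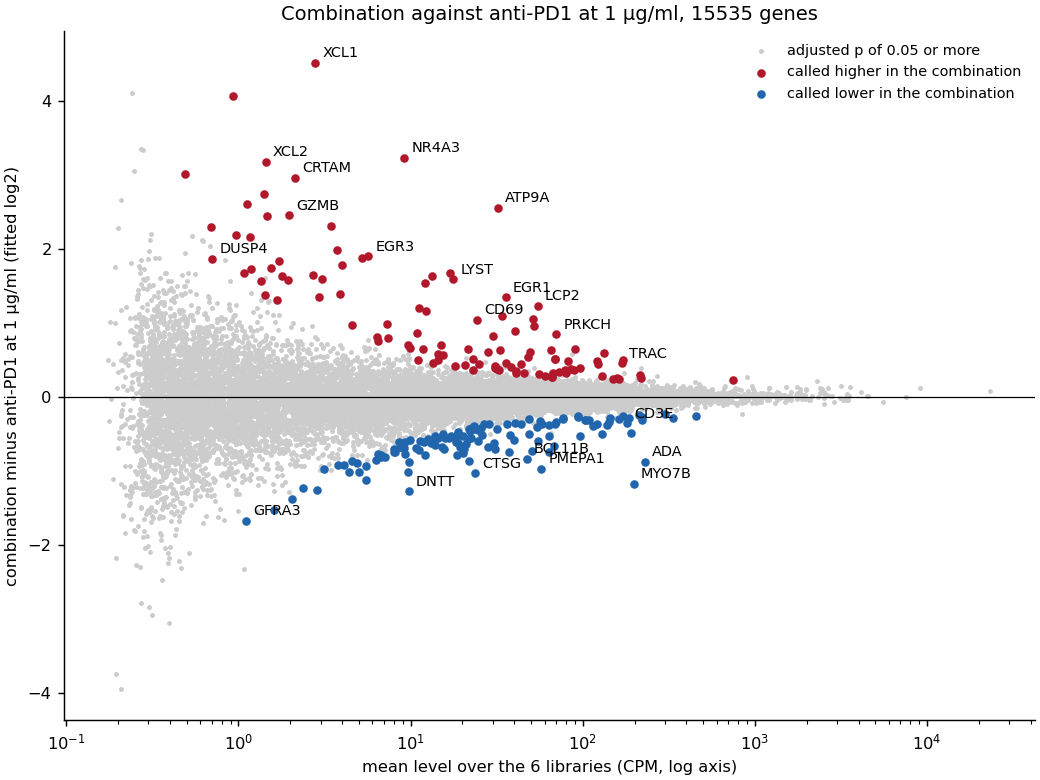
Each point is 1 of 15535 genes, with its mean level over the 6 libraries (CPM, log axis) on the horizontal axis and its fitted log2 difference, combination minus anti-PD1, at 1 µg/ml on the vertical axis. Coloured points are the 112 genes called higher and the 129 called lower, and XCL1 at 4.52 is the highest of them while GFRA3 at -1.67 is the lowest.

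Among the immediate early transcription factors, 3 EGR genes, both tested NR4A genes and 2 of 12 AP-1 genes rose in the combination. EGR1, a zinc finger factor induced within minutes of receptor signalling (GRCh38 chromosome 5, 138465490 to 138469315, plus strand), was at 19.7, 41.2 and 82.5 CPM in the combination libraries, against 16.2, 20.6 and 33.5 CPM in the anti-PD1 libraries at 0.01, 0.1 and 1 µg/ml. The combination library was the higher one at every dose, the gap was widest at 1 µg/ml, and across the doses the arms overlapped. EGR1 rose by 1.35 ± 0.09 log2 (adjusted p = 1.02e-09), the smallest p of the table together with LCP2 and ADA. EGR2, which acts with EGR3 in T cell tolerance, stood at 1.74, 3.70 and 10.7 CPM in the combination libraries, against 1.84, 1.67 and 2.79 CPM in the anti-PD1 libraries, and EGR3 at 1.46, 6.32 and 17.2 CPM in the combination libraries, against 1.67, 2.45 and 4.94 CPM in the anti-PD1 libraries. The arms were close in both genes at 0.01 µg/ml and apart at 0.1 and 1 µg/ml, and they rose by 1.99 ± 0.23 (adjusted p = 2.81e-06) and 1.90 ± 0.19 log2 (adjusted p = 3.20e-07). EGR3 passed the test under every one of its 15 alternative settings. NAB2, a corepressor that binds EGR proteins, rose by 0.44 ± 0.10 log2 (adjusted p = 0.0158), while EGR4 at 0.84 ± 0.39 (adjusted p = 0.446) and NAB1 at 0.12 ± 0.11 (adjusted p = 0.803) did not pass. In all, 4 of the 6 tested EGR and NAB genes rose, with a list median of 1.10 log2 against 0.00301 over all genes tested.

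NR4A3, an orphan nuclear receptor whose transcript follows TCR signal strength (chromosome 9, 99821855 to 99866891, plus strand), was at 1.91, 5.40 and 39.4 CPM in the combination libraries, against 1.97, 2.08 and 4.17 CPM in the anti-PD1 libraries. The combination library at 1 µg/ml was far above the other 5, and at 0.01 µg/ml the arms were close. It rose by 3.24 ± 0.28 log2 (adjusted p = 8.27e-05), and NR4A1 (Nur77), its paralogue, rose by 1.68 ± 0.23 (adjusted p = 0.00932), with 7.41, 16.0 and 46.0 CPM in the combination libraries, against 8.31, 9.71 and 14.3 CPM in the anti-PD1 libraries. Of the 12 AP-1 genes only FOS, with 0.904, 2.00 and 5.09 CPM in the combination libraries, against 0.943, 0.979 and 1.77 CPM in the anti-PD1 libraries, and JUND, with 104, 124 and 166 CPM in the combination libraries, against 106, 120.0 and 117 CPM in the anti-PD1 libraries, rose, by 1.59 ± 0.29 and 0.45 ± 0.07 log2 (adjusted p = 0.00225 and 1.46e-04). JUN at -0.14 ± 0.18, FOSB at -0.09 ± 0.34 and BATF at 0.10 ± 0.12 were among the 10 that did not pass. NFATC1, a calcium-dependent factor, had 92.9 CPM in the combination and 60.8 CPM with anti-PD1 at 1 µg/ml and rose by 0.52 ± 0.08 log2 (adjusted p = 3.12e-04). MYC at -0.09 ± 0.06 (adjusted p = 0.647) and IRF4 at 0.12 ± 0.11 (adjusted p = 0.821), also targets of TCR signalling, did not pass.

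Taking the early genes of TCR signalling together, 23 of 48 tested rose and 0 fell, with a median of 0.44 log2. The count was 3 without the combination library at 1 µg/ml, 6 without the anti-PD1 library at 1 µg/ml and 11 with the T minus B covariate, and 24 once GC content and transcript length were corrected for, as described with the lowest dose. Of the other members, IER3 rose by 0.71 ± 0.12 and PHLDA1 by 1.35 ± 0.28 log2 (adjusted p = 9.59e-04 and 0.00725). The MAP kinase phosphatases DUSP2 and DUSP4 rose by 0.49 ± 0.07 and 1.87 ± 0.48 (adjusted p = 1.47e-04 and 0.0459), and DUSP4 was under 1 CPM in 5 of the 6 libraries. DUSP5 at 0.23 ± 0.10 and DUSP6 at -0.39 ± 0.57 (adjusted p = 0.389 and 0.901) did not pass. ZFP36L1, which destabilises mRNAs with AU-rich elements, rose by 0.37 ± 0.07 (adjusted p = 0.00202), and TNFAIP3 (A20), an inhibitor of NF-kB, by 0.28 ± 0.06 (adjusted p = 0.00903). Among 33 NF-kB genes, TNFAIP3, the subunit REL at 0.34 ± 0.07 and the subunit NFKB2 at 0.25 ± 0.06 were the 3 that rose.

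**Figure D2:**
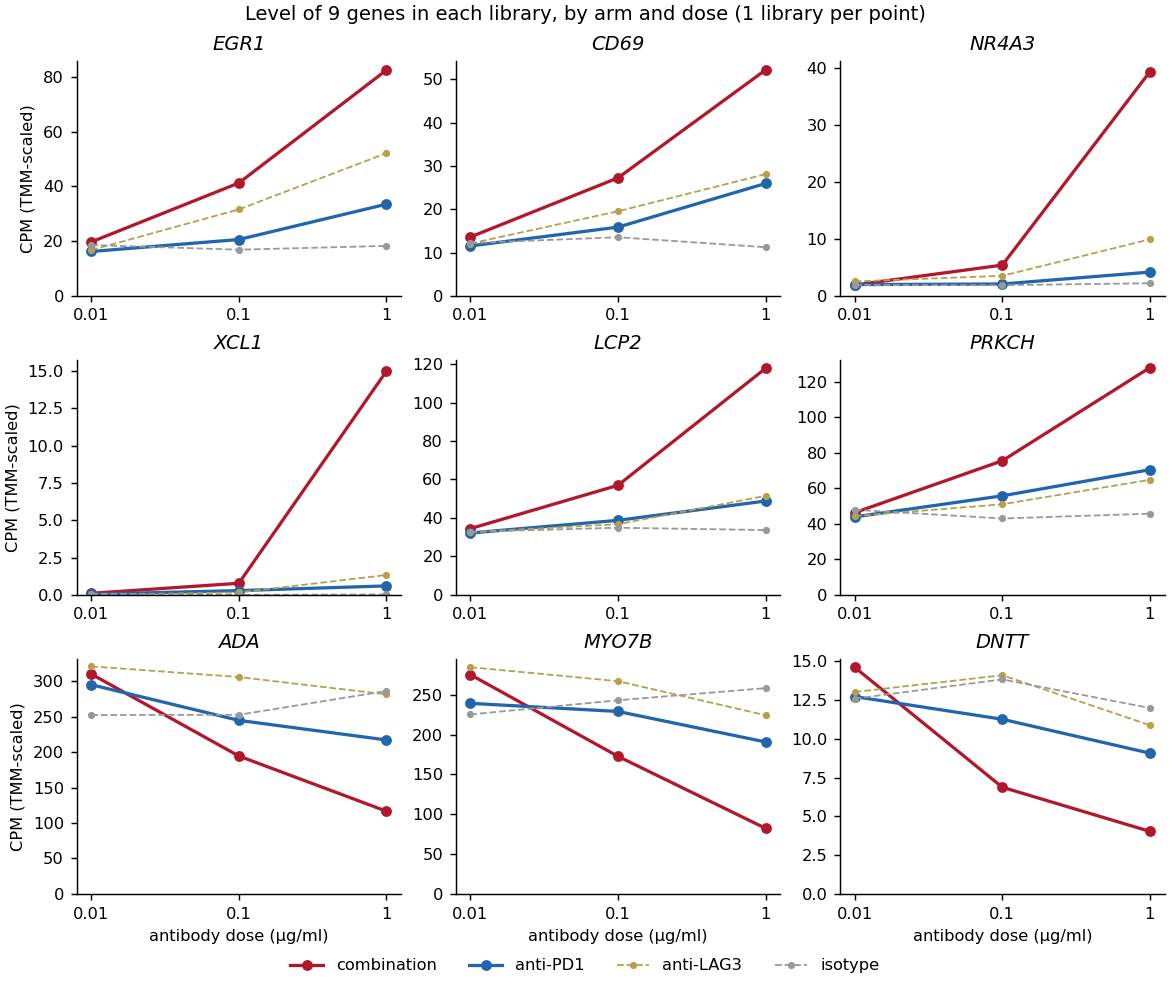
Level of 9 genes in each library (vertical axis, CPM, starting at 0) against antibody dose (horizontal axis, µg/ml, equal steps of 10-fold), with combination and anti-PD1 as thick lines and anti-LAG3 and isotype as thin broken ones, 1 library per point. In the upper 2 rows the combination reaches the highest level at 1 µg/ml, as EGR1 does with 82.5 CPM against 33.5 CPM with anti-PD1, and in the lowest row it reaches the lowest level.

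CD69, a surface antigen that marks early lymphocyte activation (chromosome 12, 9752486 to 9760901, minus strand), was at 13.6, 27.3 and 52.2 CPM in the combination libraries, against 11.5, 15.9 and 26.0 CPM in the anti-PD1 libraries. The combination library was the higher one at each dose, and the gap was widest at 1 µg/ml. CD69 rose by 1.05 ± 0.10 log2 (adjusted p = 2.39e-07). IL2RA, which encodes the high-affinity chain of the IL-2 receptor, stood at 1.32, 2.26 and 8.65 CPM in the combination libraries, against 1.37, 2.12 and 2.58 CPM in the anti-PD1 libraries. Only at 1 µg/ml were the arms clearly apart, and IL2RA rose by 1.59 ± 0.26 (adjusted p = 5.87e-04). JAK3, the kinase of the common gamma chain, and IL21R, a receptor that signals through it, rose by 0.80 ± 0.16 and 0.28 ± 0.07 (adjusted p = 0.00484 and 0.0342), which made 3 of 19 genes of the IL-2 receptor, STAT and SOCS list.

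Of 33 costimulatory and coinhibitory receptors and ligands, 7 rose and 0 fell. CRTAM, a receptor of activated cytotoxic T cells (chromosome 11, 122838500 to 122872639, plus strand), was at 0.348, 1.63 and 8.46 CPM in the combination libraries, against 0.471, 0.939 and 0.989 CPM in the anti-PD1 libraries, so that the combination at 1 µg/ml stood alone. It rose by 2.97 ± 0.31 log2 (adjusted p = 8.47e-07). CD226 (DNAM-1), an activating receptor for the poliovirus receptor, stood at 7.90, 12.8 and 25.3 CPM in the combination libraries, against 7.71, 8.49 and 11.3 CPM in the anti-PD1 libraries and rose by 1.16 ± 0.13 (adjusted p = 2.47e-06). The costimulator ICOS and the CD40 ligand CD40LG rose by 1.64 ± 0.30 and 1.68 ± 0.42 (adjusted p = 0.00231 and 0.0394), with 5.09 and 3.37 CPM in the combination at 1 µg/ml, against 1.66 and 1.02 CPM with anti-PD1. CD96 rose by 0.42 ± 0.11, and CD5 and CD6, scavenger-type receptors that damp TCR signalling, by 0.63 ± 0.10 and 0.39 ± 0.08 (adjusted p = 0.0394, 2.63e-04 and 0.0122). CD28, the main costimulatory receptor, had 66.7, 81.9 and 140.2 CPM in the combination libraries, against 66.8, 69.9 and 91.6 CPM in the anti-PD1 libraries, and its difference of 0.59 ± 0.12 (adjusted p = 0.0520) did not pass. Without the combination library at 1 µg/ml the count on this list was 0.

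The chemokine genes XCL1 and XCL2 gave some of the widest ratios. They encode lymphotactin, which attracts dendritic cells that carry XCR1, and are near-identical neighbours on chromosome 1, so reads may have been split between them and the share of each is uncertain. XCL1 had 3, 21 and 383 counts in the combination at 0.01, 0.1 and 1 µg/ml, against 1, 7 and 17 counts with anti-PD1. At 1 µg/ml the ratio, scaled for depth, was 25 with a 95% interval of 15.4 to 43.3 that covers counting error only, and at 0.1 µg/ml it was 2.72 (1.11 to 7.57). At 0.01 µg/ml the ratio of 2.44 (0.196 to 128) could not be told from 1. XCL2 had 22 and 175 counts in the combination at 0.1 and 1 µg/ml, against 6 and 21 counts with anti-PD1, and 0 CPM in both libraries at 0.01 µg/ml. The fitted rises were 4.52 ± 0.37 log2 for XCL1 (adjusted p = 1.30e-08) and 3.18 ± 0.45 for XCL2 (adjusted p = 8.52e-05), and the value for XCL2 was 7.54 and not called without the combination library at 1 µg/ml and -0.94 without the anti-PD1 library at 1 µg/ml. Of 17 cytokine and chemokine genes tested, these 2 and IL16, at 0.32 ± 0.08 (adjusted p = 0.0355), rose, and IL32, at -0.41 ± 0.08 (adjusted p = 0.00428), fell. TNF at 0.55 ± 0.17 (adjusted p = 0.146) did not pass. IL2 had 4 counts over the combination and 1 over the anti-PD1 libraries, IFNG had 6 and 3, and neither was tested.

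GZMB, the cytotoxic granule protease granzyme B (chromosome 14, 24630954 to 24634267, minus strand), was at 0.800, 1.77 and 6.69 CPM in the combination libraries, against 0.557, 0.775 and 1.17 CPM in the anti-PD1 libraries. It was the higher in the combination at each dose and rose by 2.46 ± 0.32 log2 (adjusted p = 2.21e-05). SRGN, the proteoglycan that holds granzymes in the granule, rose by 0.42 ± 0.09 (adjusted p = 0.0125), and 2 of 11 cytotoxic genes rose in all. LYST, which regulates lysosome-related granules, stood at 9.5, 17.5 and 45.1 CPM in the combination libraries, against 9.17, 10.5 and 14.7 CPM in the anti-PD1 libraries and rose by 1.60 ± 0.12 (adjusted p = 3.89e-09). GBP2, an interferon-induced GTPase with a low mean of 0.971 CPM over the 6 libraries, rose by 2.19 ± 0.42 log2 (adjusted p = 0.00347). LAMP3 and LY6E fell by 0.61 ± 0.11 and 0.62 ± 0.09 log2 (adjusted p = 0.00161 and 1.06e-04). GBP2, LAMP3 and LY6E were the 3 interferon-response genes called of 49 tested.

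The TCR signalling machinery changed in both directions. LCP2, the adaptor SLP-76 (chromosome 5, 170246237 to 170298227, minus strand), was at 34.5, 57.0 and 118 CPM in the combination libraries, against 32.2, 38.8 and 48.8 CPM in the anti-PD1 libraries. The arms were close at 0.01 µg/ml and furthest apart at 1 µg/ml, and the combination was the higher one at each dose. LCP2 rose by 1.24 ± 0.08 log2 (adjusted p = 1.02e-09). SH2D2A (TSAd), an adaptor that binds LCK, rose by 1.20 ± 0.15 (adjusted p = 1.98e-05), and PRKCH, protein kinase C eta, with 46.3, 75.4 and 128 CPM in the combination libraries, against 43.9, 55.7 and 70.4 CPM in the anti-PD1 libraries, by 0.85 ± 0.07 (adjusted p = 2.01e-08). GRAP2 (Gads), the partner of SLP-76, had 36.9, 28.5 and 19.8 CPM in the combination libraries, against 34.4, 34.0 and 32.8 CPM in the anti-PD1 libraries, the lower in the combination at 0.1 and 1 µg/ml and the higher at 0.01 µg/ml. GRAP2 fell by 0.71 ± 0.09 log2, THEMIS by 0.58 ± 0.08 and LCK by 0.23 ± 0.06 (adjusted p = 2.24e-05, 8.87e-05 and 0.0433). Of 32 proximal TCR genes, a list that does not hold PRKCH, 4 rose, LCP2 and SH2D2A among them, and 3 fell. PRKCH was the 1 gene called of 13 in the list of protein kinase C and RASGRP genes. Of 28 negative regulators 5 rose and 0 fell, namely NR4A1, CD5, PTPN7 at 0.26 ± 0.06, LAX1 at 0.50 ± 0.12 and TOX at 0.33 ± 0.07.

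The receptor's own chains were not moved together. TRAC, the constant region of the alpha chain, stood at 108, 167 and 284 CPM in the combination libraries, against 107, 139.8 and 208 CPM in the anti-PD1 libraries. The arms were close at 0.01 µg/ml and furthest apart at 1 µg/ml, and TRAC rose by 0.46 ± 0.07 log2 (adjusted p = 2.78e-04). The rearranged variable segments TRAV8-4 and TRBV12-3 rose by 0.49 ± 0.07 and 0.33 ± 0.07 (adjusted p = 3.67e-05 and 0.0158), though such segments have near copies and reads may be split among them, and TRAT1, an adaptor of the complex, by 0.76 ± 0.19 (adjusted p = 0.0362). CD3E, a signalling chain of the complex, stood at 205, 169 and 152 CPM in the combination libraries, against 182, 182 and 192 CPM in the anti-PD1 libraries and fell by 0.35 ± 0.07 (adjusted p = 0.00420). CD3D at 0.03 ± 0.07 and CD3G at -0.22 ± 0.07 did not pass (adjusted p = 0.949 and 0.127). TRAC, TRAT1, CD3E, LCK and THEMIS also belong to the 23 Jurkat markers, of which 4 rose and 6 fell, with a list median of -0.09 log2. Of the 28 Raji markers 0 passed, all 28 differences lay above 0, and the list median was 0.11 log2.

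The fall with the smallest p was that of ADA, adenosine deaminase, which degrades adenosine (chromosome 20, 44619522 to 44652233, minus strand). It stood at 310.3, 195 and 117 CPM in the combination libraries, against 295, 245 and 217 CPM in the anti-PD1 libraries. Its order in the arms turned with dose, slightly higher in the combination at 0.01 µg/ml and lower at 0.1 and 1 µg/ml. ADA fell by 0.87 ± 0.06 log2 at 1 µg/ml (adjusted p = 1.02e-09) and was the 1 member called of 15 in adenosine metabolism. MYO7B, an unconventional myosin of epithelial microvilli, had 275, 173 and 82.3 CPM in the combination libraries, against 239, 229 and 191 CPM in the anti-PD1 libraries and fell by 1.17 ± 0.08 (adjusted p = 1.33e-07).

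To show the start-site sequence of the 3 genes with the smallest p, their promoter windows are printed (GRCh38.p14, 300 bases that span the RefSeq gene start). These are 1 factor gene and 1 signalling gene that rose and 1 enzyme gene that fell. Letters are in lower case, with matches to 4 searched motifs in capitals. The windows are chr5:138465229-138465528 on the plus strand, chr5:170297728-170298027 on the minus strand and chr20:44651650-44651949 on the minus strand. For LCP2 and ADA the gene ranges given above come from GENCODE and start upstream of these windows, which lie inside those ranges.
EGR1: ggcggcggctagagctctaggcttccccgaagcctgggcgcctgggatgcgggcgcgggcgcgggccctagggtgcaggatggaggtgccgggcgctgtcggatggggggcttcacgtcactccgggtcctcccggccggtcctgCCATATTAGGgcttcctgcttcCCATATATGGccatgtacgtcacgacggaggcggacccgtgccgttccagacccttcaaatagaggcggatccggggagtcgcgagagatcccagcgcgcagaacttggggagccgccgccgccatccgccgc
LCP2: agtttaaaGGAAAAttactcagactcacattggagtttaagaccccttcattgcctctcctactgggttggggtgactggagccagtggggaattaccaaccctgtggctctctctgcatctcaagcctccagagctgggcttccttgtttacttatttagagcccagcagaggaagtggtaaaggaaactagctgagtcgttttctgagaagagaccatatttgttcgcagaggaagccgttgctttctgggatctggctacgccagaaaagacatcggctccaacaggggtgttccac
ADA: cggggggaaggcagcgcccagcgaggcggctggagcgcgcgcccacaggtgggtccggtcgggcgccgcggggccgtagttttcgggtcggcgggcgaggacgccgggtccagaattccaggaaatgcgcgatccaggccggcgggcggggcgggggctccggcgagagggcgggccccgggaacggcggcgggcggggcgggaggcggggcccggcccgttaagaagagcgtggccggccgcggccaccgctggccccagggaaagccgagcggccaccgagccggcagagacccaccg
The motifs, searched on both strands, were the AP-1 site TGACTCA, the EGR core GCGTGGG, the NFAT core GGAAAA and the serum response element, the last added after the values were seen. None of the 4 overlapped another in these windows. EGR1 held 2 serum response elements, which begin at positions -105 and -83 from the RefSeq gene start. LCP2 held 1 NFAT core, at position -242 from its RefSeq gene start, and no match was found in the ADA window. A promoter was matched for 69 of the 112 genes called higher and 92 of the 129 called lower. The EGR core was present in 7 (10.1%) and 17 (18.5%) of them, against 6.74% of all 27305 promoters and 9.58% of those of the genes tested. The AP-1 site was present in 4 (5.8%) and 3 (3.26%), against 4.92% of all promoters and 2.95% of those tested. The NFAT core was present in 11 (15.9%) and 16 (17.4%), against 24.3% of all and 20.2% of those tested, and the serum response element in 2 of each, against 1.29% of all and 1.03% of those tested.

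Genes of immature thymocytes were lower in the combination at 1 µg/ml. DNTT, the terminal transferase that adds nucleotides during V(D)J joining (chromosome 10, 96304396 to 96338564, plus strand), was at 14.6, 6.88 and 4.03 CPM in the combination libraries, against 12.7, 11.3 and 9.07 CPM in the anti-PD1 libraries. It was slightly higher in the combination at 0.01 µg/ml and the lower one at both other doses, and it fell by 1.27 ± 0.18 log2 (adjusted p = 6.36e-05). RAG2, a subunit of the V(D)J recombinase, fell by 1.01 ± 0.24 (adjusted p = 0.0239), while its partner RAG1 at -0.21 ± 0.28 (adjusted p = 0.886) did not pass. The lipid-presenting CD1D and CD1E fell by 0.78 ± 0.11 and 0.59 ± 0.14 (adjusted p = 9.82e-05 and 0.0235), with CD1A at -0.35 ± 0.10 not past the threshold (adjusted p = 0.0694). Adding ARPP21 at -0.43 ± 0.11 and CD99 at -0.37 ± 0.07, 6 of 15 tested members fell and 0 rose, with a median of -0.35 log2. The count was 1 without the combination library at 1 µg/ml, 2 without the anti-PD1 library at 1 µg/ml and 1 with the T minus B covariate.

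Of 26 T lineage transcription factors 5 fell and 1, TOX, rose. BCL11B, which fixes T lineage commitment, stood at 56.6, 47.6 and 25 CPM in the combination libraries, against 51.5, 54.4 and 47.8 CPM in the anti-PD1 libraries. The combination at 1 µg/ml was the lowest of the 6 libraries, and BCL11B fell by 0.83 ± 0.14 log2 (adjusted p = 0.0165). The receptor NOTCH3 and the Notch target HES4 fell by 0.77 ± 0.18 and 0.86 ± 0.13 (adjusted p = 0.0235 and 1.45e-04), SATB1 by 0.38 ± 0.08 and RUNX1 by 0.28 ± 0.07 (adjusted p = 0.00903 and 0.0321). KLF2, a factor of T cell quiescence and trafficking, and SELPLG, the ligand of P-selectin, fell by 0.60 ± 0.14 and 0.67 ± 0.11 (adjusted p = 0.0296 and 3.83e-04), 2 of 19 trafficking genes. The 5 lineage calls that fell were 0 without the combination library, or without the anti-PD1 library, at 1 µg/ml.

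Genes were ranked by fold where their mean over the 6 libraries was at least 1 CPM. That mean takes in the combination at 1 µg/ml, the only 1 of these libraries in which XCL1 and XCL2 were above 1 CPM. After XCL1, NR4A3, XCL2 and CRTAM, the largest rises were the proton pump subunit ATP6V0A4 at 2.74 ± 0.38, the endopeptidase PHEX at 2.62 ± 0.46, the flippase ATP9A at 2.56 ± 0.23 and GZMB. ATP9A stood at 9.95, 24.5 and 118 CPM in the combination libraries, against 9.08, 11.5 and 19.3 CPM in the anti-PD1 libraries. Its adjusted p was 0.00472, and those of ATP6V0A4 and PHEX were 6.57e-05 and 0.00148. The largest falls were GFRA3, a neurotrophic receptor, at -1.67 ± 0.43, HKDC1, a hexokinase family member, at -1.53 ± 0.40, RP11-973H7.4 at -1.37 ± 0.35, DNTT, the receptor kinase FGFR3 at -1.26 ± 0.27, DIXDC1 at -1.23 ± 0.28, MYO7B and the connexin GJA3 at -1.11 ± 0.21. GFRA3 and HKDC1 were near the threshold, with adjusted p of 0.0476 and 0.049998, and levels of 0.431 and 0.548 CPM in the combination at 1 µg/ml, against 1.55 and 1.8 CPM with anti-PD1.

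**Figure D3:**
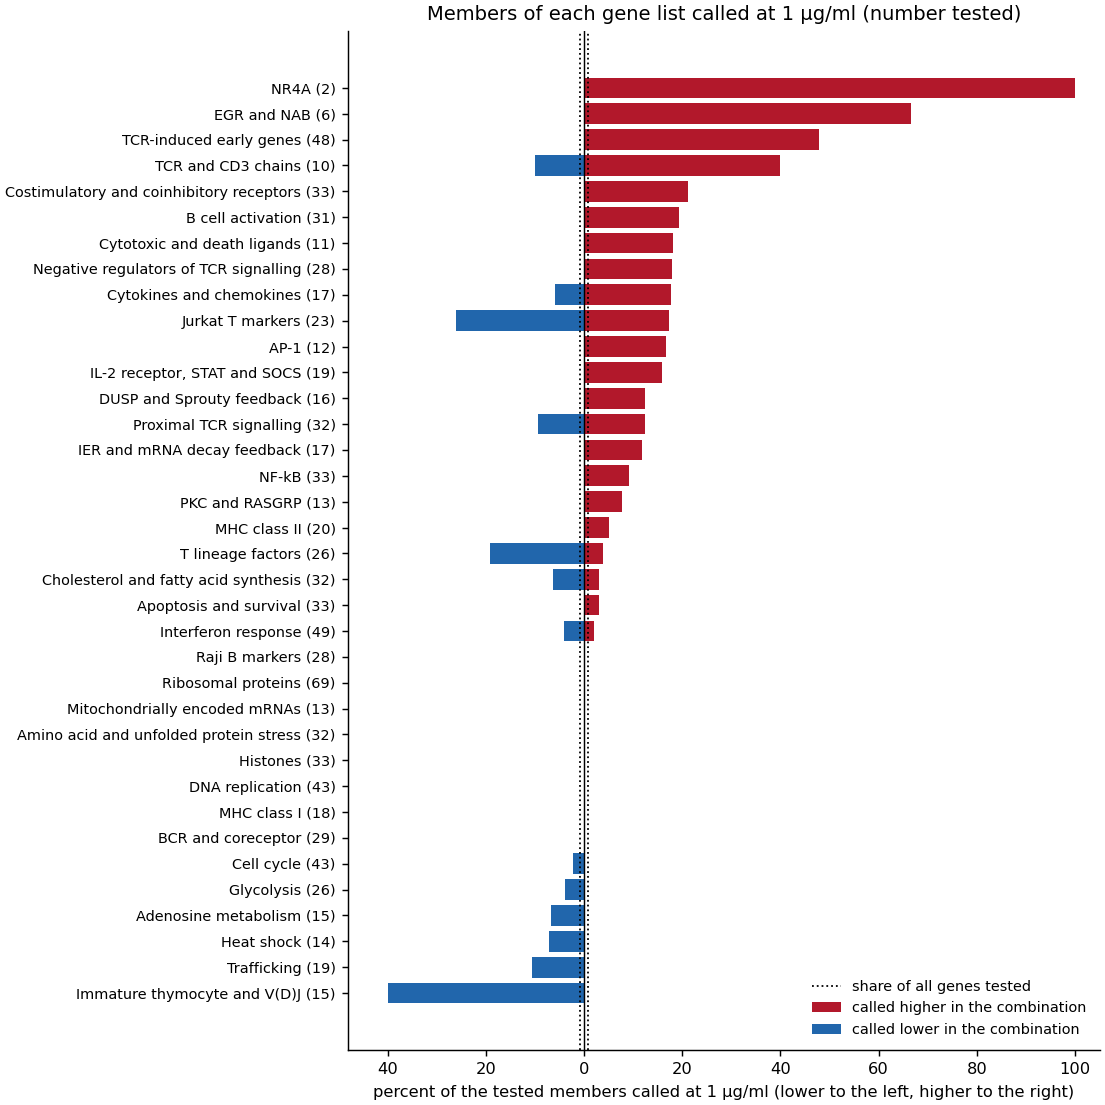
Percent of the tested members of each of 36 gene lists called at 1 µg/ml (horizontal axis), higher in the combination to the right and lower to the left, with the number tested after each name and dotted lines at the share of all genes tested. NR4A, EGR and NAB and the TCR-induced early genes reach furthest to the right, and the immature thymocyte genes, with 6 of 15, furthest to the left. The lists were chosen with earlier results of these data known, so the bars describe them and are no separate test.

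Calls at 1 µg/ml in lists of B cell genes and housekeeping programmes are given next. Over all genes tested 1.55% were called, 0.721% higher and 0.830% lower. At such a share a short list may hold no call, so a count of 0 says little about its genes. Of 29 genes of the B cell receptor and its coreceptors 0 passed, and of 20 MHC class II genes 1 did, the protease CTSS at 0.29 ± 0.07 (adjusted p = 0.0336). B cell activation had 6 of 31 higher, but EGR1, EGR2, CD69, NFKB2 and TNFAIP3 are shared with the T cell lists, and the sixth was BACH2 with 20.9, 32.6 and 52.9 CPM in the combination libraries, against 20.4, 24.8 and 29.4 CPM in the anti-PD1 libraries, a rise of 0.83 ± 0.09 (adjusted p = 1.72e-06). BACH2 is a repressor expressed in B cells and in T cells. No gene passed among 43 of DNA replication, 33 histone genes, 32 of the amino acid and unfolded protein response, 13 mitochondrially encoded mRNAs and 69 ribosomal proteins. At 1 µg/ml the histone list median was -0.55 log2 with no member past the threshold, and 2 of its 33 members were above 0. At 0.01 µg/ml the median was 0.27 and 28 members were above 0. Levels were low, with HIST1H1B at a mean of 0.726 CPM and HIST1H1E at 1.96 CPM over the 6 libraries. MHC class I had 0 of 18 called at 1 µg/ml, but 3 higher and 1 lower once GC content and transcript length were corrected for. Cell cycle had 1 of 43 called, the cyclin CCND3 at -0.27 ± 0.06, glycolysis 1 of 26, ENO2 at -0.53 ± 0.10, and heat shock 1 of 14, HSPB1 at -0.51 ± 0.13. Of 32 genes of cholesterol and fatty acid synthesis HMGCS1 rose by 0.30 ± 0.06 and both FADS1 and FADS2 fell by 0.53 ± 0.07 and 0.28 ± 0.06.

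Whether the difference widened with dose was tested as the difference of the arms' slopes on log10 dose. It was called for 100 genes (0.644%), 53 with the higher slope (0.341%) and 47 with the lower slope (0.303%) in the combination, and 69 of them were also among the 241 called at 1 µg/ml. LCP2 had a slope difference of 0.59 ± 0.07 log2 per 10-fold dose (adjusted p = 4.26e-05), EGR1 of 0.49 ± 0.08 (adjusted p = 0.00153) and CD69 of 0.37 ± 0.09 (adjusted p = 0.0481). The steepest rises were taken among genes with a mean of at least 1 CPM over the 6 libraries, which 1 high library can bring about. They were CRTAM at 1.85 ± 0.33, NR4A3 at 1.78 ± 0.31, ATP6V0A4 at 1.76 ± 0.42, the G protein subunit GNG4 at 1.03 ± 0.14, EGR2 at 1.02 ± 0.21 and the histidine decarboxylase HDC at 0.98 ± 0.18. HDC stood at 1.60, 5.10 and 15.8 CPM in the combination libraries, against 1.76, 2.61 and 4.34 CPM in the anti-PD1 libraries. On the other side ADA had -0.48 ± 0.05 (adjusted p = 2.34e-06), MYO7B -0.70 ± 0.06 (adjusted p = 2.47e-05) and DNTT -0.71 ± 0.12 (adjusted p = 0.00445). XCL1, at 2.49 ± 0.69 (adjusted p = 0.114), did not pass. Among the early genes 9 of 48 had the higher slope and 0 the lower. ADA and MYO7B kept this call under all 14 of their alternative settings. The count of 100 was 6 without the combination library at 1 µg/ml, 16 without the anti-PD1 library at 1 µg/ml, 16 without that at 0.01 µg/ml, 35 when the combination library at 0.01 µg/ml was left out, and 10 with the T minus B covariate.

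The ratio of single libraries at each dose, which has no replicate check, showed where the genes called at 1 µg/ml stood at the lower doses. For the 112 called higher, the median log2 ratio was 0.01 at 0.01 µg/ml, 0.33 at 0.1 µg/ml and 0.69 at 1 µg/ml, and 57, 108 and 112 of them were above 0. For the 129 called lower it was 0.00084, -0.22 and -0.59, and 64, 122 and 129 were below 0. These libraries entered the fit that chose the genes, so the counts describe them and are no separate test. Over all genes tested, 447 (2.88%), 376 (2.42%) and 425 (2.74%) were past 2-fold at 0.01, 0.1 and 1 µg/ml, with 2.01%, 1.27% and 1.40% higher and 0.863%, 1.15% and 1.34% lower in the combination. Among those with a mean of at least 1 CPM over the 6 libraries, 34, 21 and 63 were past 2-fold higher in the combination. By the same filter 10, 13 and 34 were lower. That mean takes in the libraries compared, so a gene can pass through 1 high library, and these counts do not rank the doses.

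At 0.01 µg/ml 1 of the TCR-induced early genes was called, and genes of other groups differed. The fitted distance there was called for 407 genes (2.62%), 123 higher (0.792%) and 284 lower (1.83%), 7 of them shared with the calls at 1 µg/ml, with a median size of 0.32 log2. The 1 early gene called of 48 was DUSP2, which was lower by 0.33 ± 0.07 log2 (adjusted p = 0.0183), and the list median was -0.04. CD69 had 0.31 ± 0.12 and EGR1 0.37 ± 0.11 (adjusted p = 0.213 and 0.0688), and neither passed. The largest rises and falls were mostly pseudogenes or genes with near copies, such as MTND2P28 at 1.83 ± 0.22 and RPS2P5 at -0.64 ± 0.06, whose reads may belong to other genes.

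Mitochondrial and ribosomal transcripts and MHC class I moved at this dose. MT-ND5, a subunit of complex I read from the mitochondrial genome, stood at 2744, 2479 and 2526 CPM in the combination libraries, against 1837, 2084 and 2081 CPM in the anti-PD1 libraries, with no overlap between the arms, as in 17.1% of the genes tested, and was higher by 0.52 ± 0.07 log2 (adjusted p = 6.87e-04). With MT-ND4 at 0.45 ± 0.08, MT-ND4L at 0.53 ± 0.08 and MT-ND6 at 0.45 ± 0.09, 4 of 13 mitochondrially encoded mRNAs rose and 0 fell, with a median of 0.33. The list's median ratio of single libraries was 0.40, 0.11 and 0.18 log2 at 0.01, 0.1 and 1 µg/ml, so above 0 at each dose. Genes of the mitochondrial genome took 3.92%, 3.51% and 3.76% of all counts in the combination libraries, against 3.01%, 3.30% and 3.39% in the anti-PD1 libraries. HLA-C, a heavy chain of MHC class I, stood at 348, 396 and 456 CPM in the combination libraries, against 443, 425 and 420.3 CPM in the anti-PD1 libraries, the lowest of the 6 being the combination at 0.01 µg/ml. HLA-C was lower by 0.34 ± 0.05, HLA-B by 0.27 ± 0.05, the peptide transporter TAP1 by 0.28 ± 0.06 and the proteasome subunits PSMB8 and PSMB10 by 0.26 ± 0.06 and 0.53 ± 0.08 log2, and 6 of 18 fell in all, while the light chain B2M stood at 0.02 ± 0.06 (adjusted p = 0.942). HLA genes resemble each other, so their single values are uncertain. Of 69 ribosomal protein genes 19 fell and 2 rose, with RPS12 at -0.32 ± 0.06 and RPS24 at 0.32 ± 0.08 at the ends. Without either library at 0.01 µg/ml, and with the T minus B covariate, the count of 407 and these list counts were 0, and without the anti-PD1 library at 1 µg/ml the count was 624.

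GC content moved with the calls at 0.01 µg/ml. The median GC content of the longest transcript was 40.3% for the genes called higher and 60.1% for those called lower, against 48.5% over all genes tested. At 1 µg/ml it was 49.5% for the 112 called higher and 54.9% for the 129 called lower. A correction for GC content and length, chosen after seeing the data, gave 156 calls at 0.01 µg/ml, 106 of them shared with the 407, and 287 at 1 µg/ml, 223 of them shared with the 241. Under it 2 of 18 MHC class I genes, 14 of 69 ribosomal protein genes and 3 of 13 mitochondrial mRNAs were called at 0.01 µg/ml, with 0 higher among the first 2 lists and 0 lower among the mitochondrial mRNAs.

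**Figure D4:**
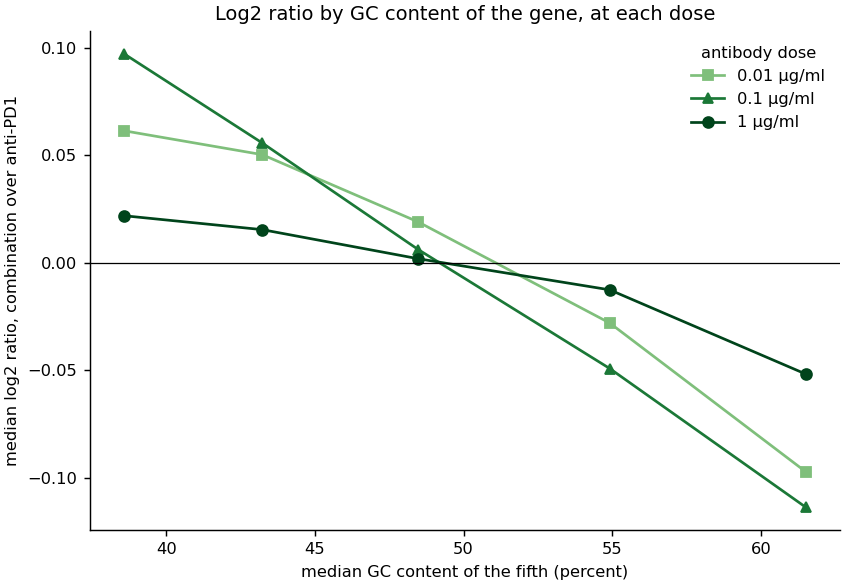
Median log2 ratio, combination over anti-PD1 (vertical axis), of the tested genes in 5 equal groups by the GC content of their longest transcript (horizontal axis, percent), with 1 line for each dose. The line for 0.1 µg/ml runs between 0.10 in the group of lowest GC content and -0.11 in the highest, that for 0.01 µg/ml between 0.06 and -0.10, and that for 1 µg/ml between 0.02 and -0.05.

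Averaged over the 3 doses, with dose matched as a factor, 55 genes were called (0.354%), 18 higher (0.116%) and 37 lower (0.238%), with a median size of 0.27 log2, and 2176 genes had an unadjusted p under 0.05. In this model a response that grows with dose counts as spread, and EGR1 at 0.93 ± 0.36 (adjusted p = 0.323) and LCP2 at 0.72 ± 0.30 (adjusted p = 0.363) did not pass. XCL1 stood at 3.84 ± 0.65 (adjusted p = 0.0499) and the clock-linked repressor BHLHE40 at 1.22 ± 0.27 (adjusted p = 0.0431). They were the largest rises among genes with 1 sign at all doses and a mean of at least 1 CPM over the 6 libraries. XCL1 was under 1 CPM in all of these libraries but the combination at 1 µg/ml. BHLHE40 stood at 1.53, 2.03 and 3.72 CPM in the combination libraries, against 0.943, 1.18 and 0.918 CPM in the anti-PD1 libraries, with no overlap between the arms. ZNF570, a zinc finger gene, stood at 6.57, 7.54 and 6.97 CPM in the combination libraries, against 4.24, 4.24 and 4.63 CPM in the anti-PD1 libraries. Every combination library was above every anti-PD1 library, as in 8.01% of the genes tested. BHLHE40 and ZNF570 were named for a call in the mean with 1 sign at all doses, so this separation is no separate support. ZNF570 was higher by 0.68 ± 0.13 log2 (adjusted p = 0.0234). The mitotic kinesin CENPE, with 63.3, 59.6 and 47.7 CPM in the combination libraries, against 45.0, 46.4 and 45.3 CPM in the anti-PD1 libraries, was higher by 0.31 ± 0.07, ZFP36L1 by 0.28 ± 0.05, the initiation factor EIF5B by 0.27 ± 0.05 and TOX by 0.26 ± 0.06 (adjusted p = 0.0423, 0.0227, 0.0234 and 0.0469).

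The falls in the mean were small. TRAPPC5, a subunit of the TRAPP vesicle tether, stood at 8.56, 8.91 and 9.55 CPM in the combination libraries, against 14.4, 12.8 and 11.8 CPM in the anti-PD1 libraries, and the mitochondrial endonuclease ENDOG at 14.8, 18.2 and 16.2 CPM in the combination libraries, against 25, 22.1 and 21.8 CPM in the anti-PD1 libraries. In both genes all 3 combination libraries were below all 3 anti-PD1 libraries. Both were named for a call in the mean with 1 sign at all doses, so this separation is no separate support. TRAPPC5 was lower by 0.52 ± 0.10, ENDOG by 0.49 ± 0.08, the phosphatase PDXP by 0.42 ± 0.07, the pseudokinase receptor PTK7 by 0.42 ± 0.09 and the mitochondrial carrier SLC25A10 by 0.40 ± 0.06 log2. Over all genes tested the 2 arms did not overlap in 2662 (17.1%), 1245 of them higher (8.01%) and 1417 lower (9.12%) in the combination. The median GC content was 40.1% for the 18 genes called higher and 63.8% for the 37 called lower, 39 of the 55 were also called at 0.01 µg/ml, and 3 genes were called once GC content and transcript length were corrected for. Each of the 6 libraries decided the count of 55, which was 193, 2 and 104 with the combination library at 0.01, 0.1 and 1 µg/ml left out in turn, and 0, 14 and 16 with the anti-PD1 library at those doses left out in turn.

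**Figure D5:**
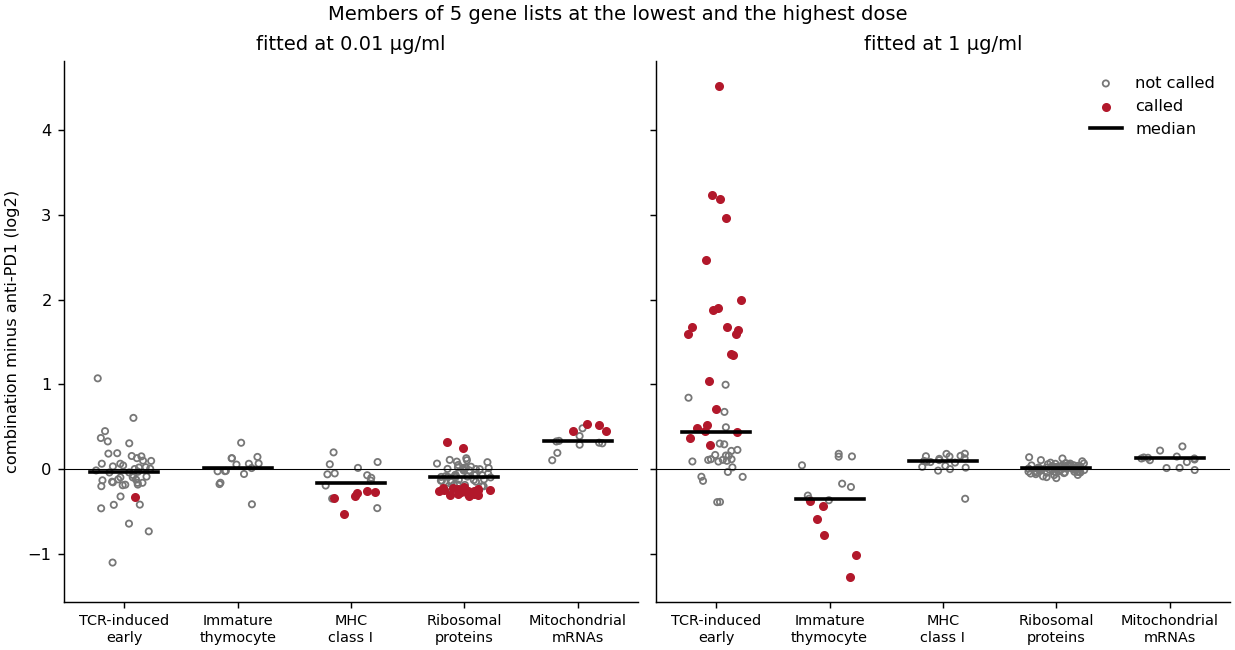
Fitted log2 difference, combination minus anti-PD1 (vertical axis), of the tested members of 5 gene lists at 0.01 µg/ml (left) and 1 µg/ml (right), with called members filled and a bar at the list median. The TCR-induced early genes have a median of -0.04 on the left and 0.44 on the right, and the mitochondrial mRNAs 0.33 on the left and 0.13 on the right.

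The last question was whether anti-LAG3 changed the same genes when added to anti-PD1 as when added to isotype. The difference of these additions, (combination minus anti-PD1) minus (anti-LAG3 minus isotype), was called for 2372 genes (15.3%), 1134 positive (7.30%) and 1238 negative (7.97%). Of 48 TCR-induced early genes 1 was positive and 2 negative, with a list median of 0.09. Of 32 proximal TCR genes 3 were positive and 4 negative, and of 28 negative regulators 7 were positive and 1 negative. EGR1 stood at 0.15 ± 0.51, CD69 at 0.11 ± 0.49 and XCL1 at -0.07 ± 0.57 (adjusted p = 0.895, 0.921 and 0.961), so a departure from additive log2 effects was not shown for them, averaged over the doses. At 1 µg/ml EGR1 stood at 82.5 CPM in the combination and 33.5 CPM with anti-PD1, and at 52.1 CPM with anti-LAG3 and 18.2 CPM with isotype. LCP2 stood there at 118 CPM in the combination and 48.8 CPM with anti-PD1, and at 51.5 CPM with anti-LAG3 and 33.7 CPM with isotype. The line balance moved with this contrast. T minus B lay between -1.83 and -1.77 in the 3 anti-LAG3 libraries and between -2.01 and -1.97 in the 3 isotype libraries, with no overlap, while the combination and anti-PD1 libraries overlapped. Of the 23 Jurkat markers 0 were positive and 4 negative, and of the 28 Raji markers 7 were positive and 1 negative. MKI67, the proliferation antigen Ki-67, averaged 259 CPM in the combination and 177 CPM with anti-PD1, and 147 CPM with anti-LAG3 and 286 CPM with isotype. The addition was thus followed by a higher level on anti-PD1 and a lower level on isotype, and the difference was 1.49 ± 0.29 log2 (adjusted p = 0.0186). TRAPPC5 averaged 9.01 CPM in the combination and 13.0 CPM with anti-PD1, and 13.3 CPM with anti-LAG3 and 8.26 CPM with isotype, a difference of -1.20 ± 0.13 (adjusted p = 1.65e-05). MKI67 and TRAPPC5 were named for the size of this difference, so the order of their arms is no separate support. Ribosomal protein genes had 29 of 69 negative and 0 positive, and mitochondrially encoded mRNAs 5 of 13 positive and 0 negative. The median GC content was 42.4% for the positive and 58.6% for the negative calls, and 1142 genes were called once GC content and transcript length were corrected for, 764 of them shared with the 2372. The count was 1506 without the combination library at 0.1 µg/ml, 1434 without the anti-PD1 library at 0.01 µg/ml, 1455 without the isotype library at 0.1 µg/ml and 1044 with the T minus B covariate, and TRAPPC5 was called in all 4 of these fits and MKI67 in none.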

How the data were processed

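RNA of the co-cultures was sequenced as 12 libraries, 1 for each of 4 antibody arms at 3 doses. The labels give polyA RNA as the molecule, and their protocol an extraction of total RNA. The authors' deposited table holds raw counts per gene symbol. The tools named are STAR 2.5.2b, featureCounts of Subread 1.5.2, Trimmomatic 0.36 and DESeq2, and the build is GRCh38, per the submitters' processing notes, and whether counting used strand is not given in the sources used here. The table's 4 other count columns, which match no sample used here, and the authors' 9 comparison tables were not used. A protocol names a higher starting dose, which is not analysed here.

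Of 55782 gene symbols, 19441 had no count, and 15535 passed edgeR's filterByExpr (minimum count 10). Counts were scaled by TMM and tested with edgeR 4.0.16 (robust quasi-likelihood F test, R 4.3.3), with Benjamini-Hochberg adjustment over all genes and a threshold of 0.05. All 12 libraries entered each fit. The mean over doses and the difference from the addition to isotype came from a model of arm plus dose (6 residual degrees of freedom), and the differences at 1 and 0.01 µg/ml and of slopes from a line on log10 dose per arm (4 residual degrees of freedom). Ratios of single libraries used a prior count of 2. Intervals are 95% and cover counting error only. Depth ran between 23593973 and 36581754 counts. The script was tested on simulated data.

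The members and gene lists were chosen with earlier results of these data known. Genes were named by a rule, with LAG3, PDCD1, CD274, IL2, IFNG, CD69, EGR1, XCL1 and XCL2 always among them. It took the 12 largest rises and falls in the mean with 1 sign at all doses. It also took the 8 largest each way in the other comparisons, and up to 4 members of each list with the smallest p. Genes ranked by size had a mean of at least 1 CPM over the 6 libraries, which 1 high library can bring about. Other list members, among them MYC, JUN, DUSP5, DUSP6, CD3D and RAG1, were named after their values were seen. Alternatives tried were DESeq2 1.42.0, RLE scaling, other filters, no robust estimation, the 6 libraries alone, a T minus B covariate, other dose terms, the omission of each library, and a correction for GC content and length (loess span 0.3), the last chosen after seeing the data. GC content came from GENCODE transcripts and was known for 13686 of the genes tested (88.1%). The results of a few genes are not reported here.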

Additional observations from a re-analysis of the deposited data

Results flagged for a closer look

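The difference between adding anti-LAG3 to anti-PD1 and adding it to isotype was called for 2372 genes, by the test of the difference itself averaged over the 3 doses, and for 1044 genes, 951 of them shared, with the T minus B value of each library as a covariate. T minus B lay between -1.83 and -1.77 in the anti-LAG3 and between -2.01 and -1.97 in the isotype libraries. Each value below is that difference in log2, with 3 libraries in each arm. The largest differences were taken among genes with a mean of at least 1 CPM over the 6 combination and anti-PD1 libraries. On the positive side they were RP11-274B21.2 at 2.04, GTF2IP13 at 1.84, NPIPB4 at 1.504, MKI67 at 1.49, EEF1A1P9 at 1.44, MT-TA at 1.39, TMEM133 at 1.38 and KCNQ1OT1 at 1.37. In these 8 genes the mean CPM was higher in the combination than with anti-PD1 and lower with anti-LAG3 than with isotype. NPIPB4 stood at 4.75 CPM in the combination, 3.21 with anti-PD1, 2.43 with anti-LAG3 and 4.86 with isotype. The 8 were picked for the size of the difference in these same libraries. Such a choice favours opposite signs on the 2 sides, so this pattern is no separate support. GTF2IP13 and EEF1A1P9 are pseudogenes and NPIPB4 has near copies, so their reads may belong to other genes.

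The largest negative differences were HBQ1 at -1.27, SPSB3 at -1.26, RP11-29G8.3 at -1.24, TRAPPC5 at -1.20, BHLHE23 at -1.16, BAMBI at -1.14, TMEM151A at -1.13 and DUSP9 at -1.10. In these 8 genes the mean CPM was lower in the combination than with anti-PD1 and higher with anti-LAG3 than with isotype. DUSP9 stood at 1.45 CPM in the combination, 2.11 with anti-PD1, 2.64 with anti-LAG3 and 1.83 with isotype. These 8 were picked in the same way, so their pattern is no separate support either. GC content moved with the sign of the difference, with a median of 42.4% for the positive and 58.6% for the negative calls, and 11 of these 16 genes were called once GC content and length were corrected for. With the T minus B covariate 5 of the 16 were called, namely KCNQ1OT1, MT-TA, NPIPB4, TMEM151A and TRAPPC5. When each of the 12 libraries was left out in turn, 8 of the 16 were called every time, namely BAMBI, BHLHE23, KCNQ1OT1, MT-TA, NPIPB4, RP11-29G8.3, SPSB3 and TRAPPC5. Of the others EEF1A1P9 was called in 2 of the 12 fits, TMEM133 in 6 and MKI67, DUSP9 and RP11-274B21.2 in 7 each.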

How the results depend on the processing

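The 241 calls at 1 µg/ml were 200, 234, 324, 230, 207 and 287 with only the 6 libraries, RLE factors, no low-count filter, a 1 CPM filter, no robust estimation and the GC and length correction. They were 114 with DESeq2, 96 with the T minus B covariate, 92 without the 0.01 µg/ml libraries in a model of arm plus dose, and 17 to 268 with 1 library left out. The 100 slope calls were 58 with DESeq2, 170 with no low-count filter, 10 with the covariate and 6 to 147 with 1 library left out. The 407 calls at 0.01 µg/ml were 215 with only the 6 libraries, 220 with DESeq2, 0 with the covariate, 156 with the GC and length correction and 0 to 624 with 1 library left out. The 55 calls of the mean were 384 with only the 6 libraries, 160 with DESeq2, 349 with no low-count filter, 21 with no robust estimation, 805 as the mean of the slope model, 3 with the GC and length correction and 0 to 193 with 1 library left out. The 2372 calls against the isotype addition were 1044 with the covariate, 1142 with the correction and 1434 to 2967 with 1 library left out. Past 1.5-fold stood 1392, 1265 and 1446 genes at 0.01, 0.1 and 1 µg/ml. The T minus B difference was -0.0953 with medians of the markers and -0.0367 to 0.0395 with 1 library left out. The cause was not tested for these counts.

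The replicate number is the dose, so the replicate block is the dose term of the main model of the mean, and without it 39 genes were called. Reversed values at 1 µg/ml were those of PDCD1, not called, at -0.0161 without the 0.01 µg/ml libraries and -0.257 to 0.0661 with 1 library left out (-0.0604 without the anti-PD1 library at 1 µg/ml), and of XCL2 at -0.935 to 7.54, the lowest without the anti-PD1 library at 1 µg/ml. TMSB4XP4 at 0.01 µg/ml was -0.0779, without the combination library at that dose, to 1.55. Each condition has 1 library, so no single dose has a replicate check, and low-count genes such as XCL1 at 0.01 µg/ml were limited by counting error.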
